A study of Bos taurus with 2 samples.

Results

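DNA methylation is set and removed by a small group of enzymes, and the methylation of 8 genes that encode them was described in bone of female Holstein cattle. The writers were DNMT1, DNMT3A, DNMT3B and the DNMT1 partner UHRF1, and the erasers were TET1, TET2, TET3 and TDG. They were named by function, a rule that uses no measured value, but with earlier results of these data known. All 8 were found among the 20353 protein-coding genes that could be placed on chromosomes 1 to 29 and X. The data are WGBS (whole-genome bisulfite sequencing, in which unmethylated cytosines are converted and each read gives a methylated or an unmethylated call at a CpG cytosine). The 2 samples, Bone_1 and Bone_2, form 1 group with the same tissue, sex and breed in the labels, and no label gives an age, a treatment or whether they come from separate animals. Each SD therefore measures the spread between these samples, which may be technical. With 1 group, tests compare the 2 libraries and not conditions.

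Cytosine methylation at CpG dinucleotides is copied after replication by DNMT1, the maintenance methyltransferase, which UHRF1 brings to sites methylated on the parental strand alone. DNMT3A and DNMT3B are the de novo methyltransferases, which methylate sites that carry no mark. TET1, TET2 and TET3 are dioxygenases that oxidize 5-methylcytosine, and TDG is the DNA glycosylase that excises the more oxidized products so that base excision repair can restore cytosine. Promoters that lie in dense clusters of CpG sites, the CpG islands, are mostly unmethylated in somatic tissue, whereas CpG sites in the bodies of genes are mostly methylated.

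A methylation level is the summed methylated calls of a region over all its calls, in percent, with both strands joined into CpG sites. On chromosomes 1 to 29 and X, Bone_1 held 462047525 calls and Bone_2 held 406703424, and the level was 72.3% and 58.7%. The libraries differed in where these calls lay. In the promoter windows of the 8 genes Bone_1 held 21.2 calls per CpG site and Bone_2 held 6.23, against 18.3 and 13.3 in the bodies of these genes. The ratio of the depths was 3.40 in these promoter windows and 2.62 over the promoters of all genes. Single members could go the other way. The TET3 promoter window held 5.1 calls per site in Bone_1 and 11.75 in Bone_2, and the bodies of TET1, TET2 and TDG were deeper in Bone_2. Intervals are 95% Wilson intervals, whereas the limit given for a count of 0 is 3 divided by the number of calls. Both cover counting error only.

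The gene table used here gives the extent of each gene but not its strand. The start of a gene was therefore taken as the end with more CpG sites from 1000 bp outside to 500 bp inside it, a measure that uses no methylation value. For 7 of the genes the choice was wide, from 79 CpG sites against 22 at DNMT1 to 121 against 10 at DNMT3B. It was narrow at TET3, with 20 sites against 14, although the 2 kb inside the chosen end held 208 sites and the 2 kb inside the other end held 26. The annotated starts were placed on the coordinates of the deposited counts, which are of ARS-UCD1.2 by the submitters' processing notes, from a table of ARS-UCD2.0. For each member, the genes within 3 Mb, 28 to 200 of them, were pooled. In all 8 pools the 500 bp bin with the most CpG sites adjoined the annotated ends, at 1.86 to 3.93 times the median bin. This checks the coordinates around each member and not the member's own start. Positions below are those of the deposited counts.

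All 8 genes were almost free of methylation in the 1 kb inside the start. The level there was from 0 to 0.990% in Bone_1 and from 0 to 3.32% in Bone_2. Of all genes with enough calls, 56.9% were under 20% in both samples in this window, with medians of 8.01% and 10.3%. The 8 genes had a median of 75 CpG sites in this window, against 47 over all genes, and the part of CpG number in the low level was not tested.

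**Figure D1:**
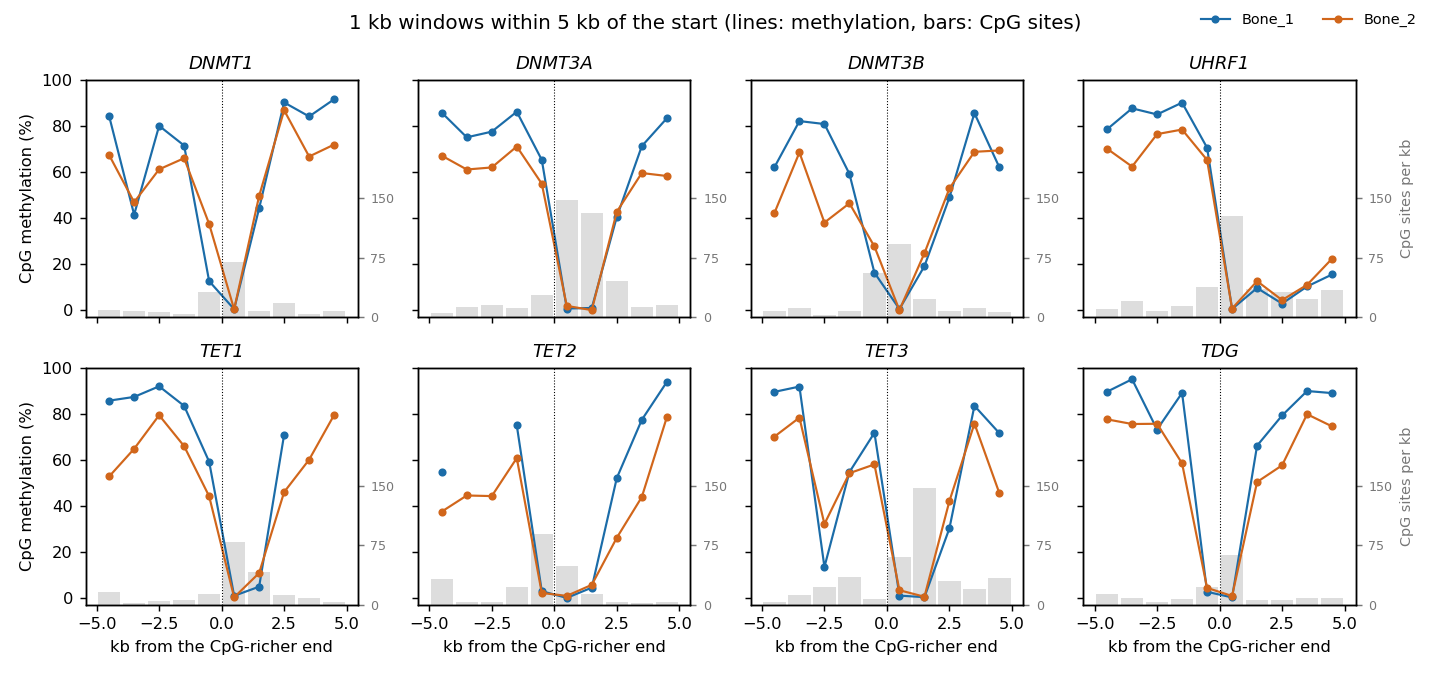
Lines give the methylation level (%) of 1 kb windows from 5 kb outside to 5 kb inside the start of each gene, for windows with at least 20 calls in that sample, and grey bars give the CpG sites per kb. In every panel both lines are at or under 3.32% in the 1 kb inside the start, and at UHRF1 they stay low to the edge of the plot.

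Among the writers, DNMT1 had 5 methylated calls in Bone_1 and 1 in Bone_2 in the 1 kb inside its start. This is 0.407% of 1228 calls in Bone_1 and 0.345% of 290 in Bone_2. The low stretch of DNMT1, measured between the nearest 200 bp bins at or over 50% on either side of its CpG-richest bin, was the shortest of the 8, at 1800 bp in Bone_1 and 2200 bp in Bone_2. The part shared by both samples held 98 CpG sites, at chr7:14729251-14730924, and 89 of the 97 sites with at least 5 calls in Bone_1 had no methylated call.

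DNMT3A had the most CpG sites within 2 kb of its start, 280. In the 1 kb inside the start 0.695% of 2589 calls were methylated in Bone_1 and 1.82% of 274 in Bone_2. In the next kb the level was 0.926% of 648 calls and 0 of 130, a count that allows a share of up to 2.31%. The low stretch of DNMT3A was 2600 bp and 3000 bp wide, with 318 sites shared at chr11:73971326-73973916. This stretch was poorly read in Bone_2, where 1 of the 318 sites had at least 5 calls, against 206 in Bone_1. The uncharacterized protein-coding gene LOC112448893 overlaps DNMT3A and has an end within 5 kb of this start, and which of them the stretch belongs to was not tested.

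At DNMT3B, 0.478% of 2721 calls were methylated in Bone_1 in the 1 kb inside the start, and 0 of 402 in Bone_2, which allows a share of up to 0.746%. The low stretch spanned 2400 bp and 2600 bp, with 161 shared sites at chr13:62141810-62144012. The lncRNA LOC112449325 has an end within 5 kb of this start.

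UHRF1 had the widest low stretch of the 8 in Bone_1, at 5600 bp, and it was 5400 bp wide in Bone_2, the same as TET2 there. The 1 kb inside the start held 128 sites at 0.506% and 0.691%. The next 4 windows inward stayed between 2.82 and 15.5% in Bone_1 and between 4.35 and 22.3% in Bone_2, whereas the medians of all genes from 1 to 2 kb inside the start were 71.4% and 54.1%. The shared part held 273 sites at chr7:19252710-19257952, with 4.65% of 4513 calls methylated in Bone_1 and 8.73% of 2177 in Bone_2. The low stretch began 200 bp outside the start in both samples. The adjoining kb outside the start was at 70.5% and 65.2%, and at 58.1% and 56.1% as a mean over the 28 sites with at least 5 calls in both samples. The protein-coding gene ARRDC5 overlaps UHRF1 in the annotation, it and the lncRNA LOC132345713 have an end within 5 kb of this start, and which of the genes the stretch belongs to was not tested.

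Among the erasers, TET1 had 0.902% of 1774 calls methylated in Bone_1 and 0.227% of 441 in Bone_2 in the 1 kb inside the start. The next kb was at 4.85% and 10.8%, with the higher level in Bone_2 (adjusted p = 0.000217, Fisher's exact test over the windows of all genes). As a mean over the 41 sites with at least 5 calls in both samples the levels were closer, at 5.85% and 7.68%. The low stretch was 2600 bp and 2800 bp wide, with 129 shared sites at chr28:24907033-24909442. The pseudogene LOC132344123 overlaps TET1 and has an end within 5 kb of this start. Other pseudogenes, a snoRNA gene and an snRNA gene also overlap TET1 in the annotation.

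TET2 was the member whose CpG-dense stretch lay mainly outside the annotated end, with 89 sites in the kb before the start and 49 in the kb after it. The kb before the start was at 2.90% of 2347 calls in Bone_1 and 2.12% of 659 in Bone_2. In the kb after it, no methylated call was made among 328 in Bone_1, which allows a share of up to 0.915%, and the level was 0.877% of 342 in Bone_2. The low stretch was 3000 bp wide in Bone_1 and 5400 bp in Bone_2. The difference lay in windows with few sites, since the windows from 2 to 3 and from 3 to 4 kb inside the start held 3 and 2 sites, at 52.0% and 77.3% in Bone_1 and 26.1% and 43.8% in Bone_2. The shared part held 152 sites at chr6:20037486-20040283.

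TET3 had its densest window from 1 to 2 kb inside the annotated end, with 148 sites at 0.306% of 981 calls in Bone_1 and 0.494% of 405 in Bone_2. The low stretch was 3000 bp wide in both samples, with 230 sites at chr11:10665392-10668218. Of its sites with at least 5 calls, 158 of 165 had no methylated call in Bone_1 and 77 of 106 in Bone_2. From 3 to 2 kb before the start TET3 was at 13.4% of 812 calls in Bone_1 and 32.1% of 262 in Bone_2, but at 30.1% and 26.1% as a mean over 18 shared sites.

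TDG was low on both sides of its start. The kb before its start was at 2.63% of 228 calls and 4.33% of 323, and the kb after it at 0.193% of 1035 and 0.809% of 371. The low stretch was 2200 bp and 2400 bp wide, with 86 shared sites at chr5:67631498-67633447, and 66 of 71 sites in Bone_1 and 54 of 59 in Bone_2 with at least 5 calls had no methylated call. UQCC6, a protein-coding gene, has an end within 5 kb of this start.

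The promoter window, from 1000 bp before to 500 bp after the start, gave a wider range of levels than the 1 kb inside the start. In the mean of both samples TDG and TET2 were lowest, at 1.65% ± 1.33 and 2.22% ± 0.578 (SD, n = 2). DNMT3B, DNMT1 and TET1 followed at 8.80% ± 7.84, 14.0% ± 13.1 and 16.9% ± 10.6 (SD, n = 2). DNMT3A, UHRF1 and TET3 came next, at 28.7% ± 7.17, 34.6% ± 4.98 and 42.5% ± 6.50 (SD, n = 2). The values of neighbours in this order overlap, except those of TET2, at most 2.63%, and DNMT3B, at least 3.26%.

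The window of DNMT3A, UHRF1 and TET3 took in methylated sequence outside the CpG-dense stretch. The kb before the start was at 65.2% and 54.9% at DNMT3A, 70.5% and 65.2% at UHRF1, and 71.7% and 57.9% at TET3, whereas the CpG-richest 200 bp bin lay from 400 to 1400 bp inside the start at these genes. With a window from 500 bp before to 500 bp after the start, the median over the 8 genes was 5.71% in place of 15.5%. Over all genes the median promoter level was 11.4% in Bone_1 and 16.1% in Bone_2, and 3 of the 8 members were under 20% in both, against 52.7% of all promoters.

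**Figure D2:**
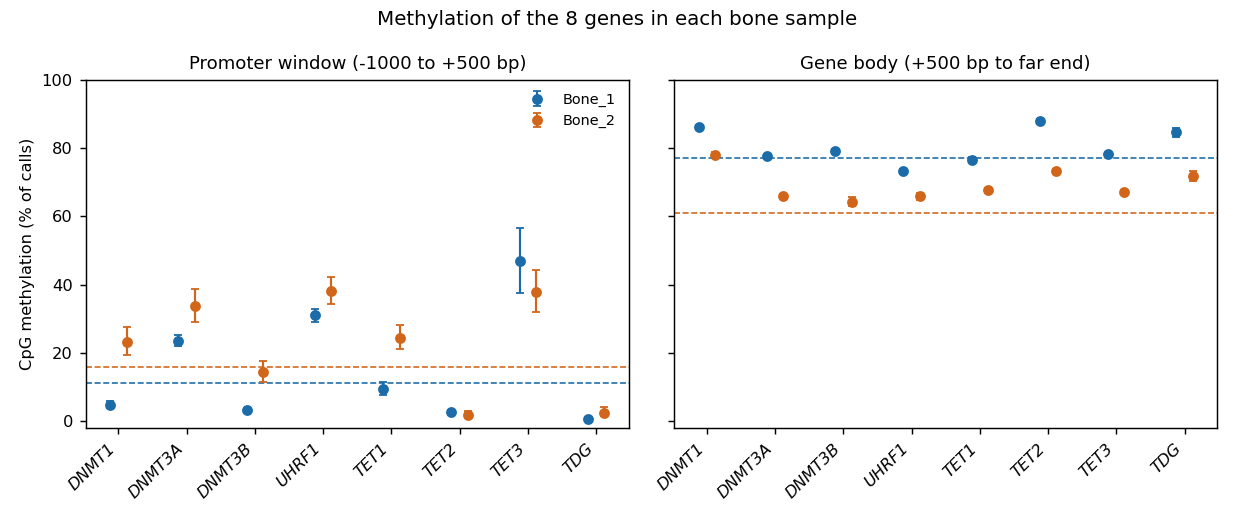
Points give the methylation level (% of calls) of the promoter window and the gene body of each gene in Bone_1 and Bone_2, bars give 95% Wilson intervals, and dashed lines give the median of all genes in each sample. Promoter levels range from 0.707 to 47.1% and bodies from 64.3 to 88.0%, and every body is lower in Bone_2.

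Summed over calls, the promoter window was more methylated in Bone_2 at 6 of the 8 genes, although Bone_2 had the lower level genome-wide. All 6 were past the threshold (adjusted p under 0.05, two-sided Fisher's exact test with Benjamini-Hochberg adjustment over 20148 promoters), where 63.3% of all promoters were past it in either direction and 27.7% with the higher level in Bone_2. DNMT1 was at 4.79% of 1460 calls in Bone_1 and 23.3% of 395 in Bone_2 (adjusted p = 6.43e-24, Fisher's exact test). By strand, DNMT1 was at 0.695% and 29.8% on the forward strand and at 13.9% and 16.3% on the reverse. TET1 was at 9.40% of 989 calls and 24.4% of 574 (adjusted p = 3.69e-14, Fisher's exact test), and DNMT3B at 3.26% of 2487 and 14.3% of 516 (adjusted p = 1.81e-18, Fisher's exact test). At TET1 the kb before the start was higher in Bone_1, at 59.1% of 137 calls against 44.1% of 315 in Bone_2. The 1 kb inside the start of TET1 was at 0.902% and 0.227%. The kb before the start was also higher in Bone_1 at DNMT3A and UHRF1, and higher in Bone_2 at DNMT1, DNMT3B and TDG. DNMT3A was at 23.6% of 2787 calls and 33.8% of 370 (adjusted p = 9.82e-05, Fisher's exact test). The differences of UHRF1 (31.1% and 38.1%) and TDG (0.707% and 2.60%) were smaller, with adjusted p = 0.00295 and 0.00537 by the same exact test. TET2, at 2.63% and 1.81%, and TET3, at 47.1% (interval 37.7 to 56.7%) and 37.9% (interval 31.9 to 44.2%), did not pass it (adjusted p = 0.261 and 0.166, Fisher's exact test). Measured against the genome-wide odds ratio of the libraries in place of equality, 6 of the 8 differed, all relatively higher in Bone_2, where 61.5% of all promoters differed and 47.4% were relatively higher in Bone_2.

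These calls depended on the window. With 500 bp on each side of the start, 2 of the 6, DNMT1 and UHRF1, were past the threshold, as were 8018 of 19970 promoters of all genes. DNMT3A and TET1 were not (adjusted p = 0.0652 and 0.0630, Fisher's exact test), and DNMT3B and TDG changed sign. With 2000 bp before and 1000 bp after the start, 16590 of 20236 promoters of all genes were past the threshold. TDG was not past it (adjusted p = 0.175, Fisher's exact test). TET2 was, with a difference of -18.1 points, Bone_1 minus Bone_2 (adjusted p = 5.31e-60, Fisher's exact test). Within this stretch of TET2, the kb from 2 to 1 kb before the start was higher in Bone_1. It was at 74.9% of 183 calls in Bone_1 and 60.7% of 664 in Bone_2. The kb before the start was at 2.90% of 2347 calls and 2.12% of 659, and the kb after it at 0 of 328 and 0.877% of 342. With at least 5 calls a cytosine the differences were wider, from -35.4 points at DNMT3B to -60.4 at DNMT1 among the writers and -37.0 at TET1.

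The direction turned when each CpG site was given the same weight. As a mean over all sites with a call in that sample, all 8 promoters were higher in Bone_1, by 0.134 points at DNMT1, 0.534 at TDG, 0.975 at UHRF1, 1.82 at DNMT3A, 2.20 at DNMT3B and 5.11 at TET1. With calls summed but sites limited to those with at least 5 calls in both samples, 1 of the 6 turned, DNMT3A at 16.8 points, and UHRF1 and TDG were no longer past the threshold (adjusted p = 0.834 and 0.593, Fisher's exact test). With equal weight and at least 5 calls in each sample's own sites, 5 of the 6 were higher in Bone_2, where DNMT3A was at 9.96% and 62.3%, and TET1 was higher in Bone_1 by 3.97 points.

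Over the sites with at least 5 calls in both samples, the mean site level was higher in Bone_1 at 7 of the 8 promoters, TET3 being the exception on 7 sites. DNMT1 was then at 19.3% and 17.7% over 22 sites, DNMT3B at 28.8% and 22.6% over 25, and UHRF1 at 30.3% and 29.2% over 55. TDG was at 1.27% and 0.377% over 39 sites. Of all promoters, 16.3% had the lower mean in Bone_1 on this measure, against 45.6% on summed calls. At DNMT1 the kb before the start held most of the methylated calls, and there 12.6% of 533 calls were methylated in Bone_1 and 37.4% of 246 in Bone_2, but the mean over 18 shared sites was 23.6% and 21.6%. The share of sites with at least 5 calls in both samples varied widely, from 12 of 98 at DNMT3A to 101 of 107 at TET2. The 12 sites of DNMT3A all lie in the kb before its start, outside the CpG-dense stretch. The direction of the promoter difference at these 6 genes therefore depends on the weight and the choice of sites, and the part of the lower promoter depth of Bone_2 in it was not tested.

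**Figure D3:**
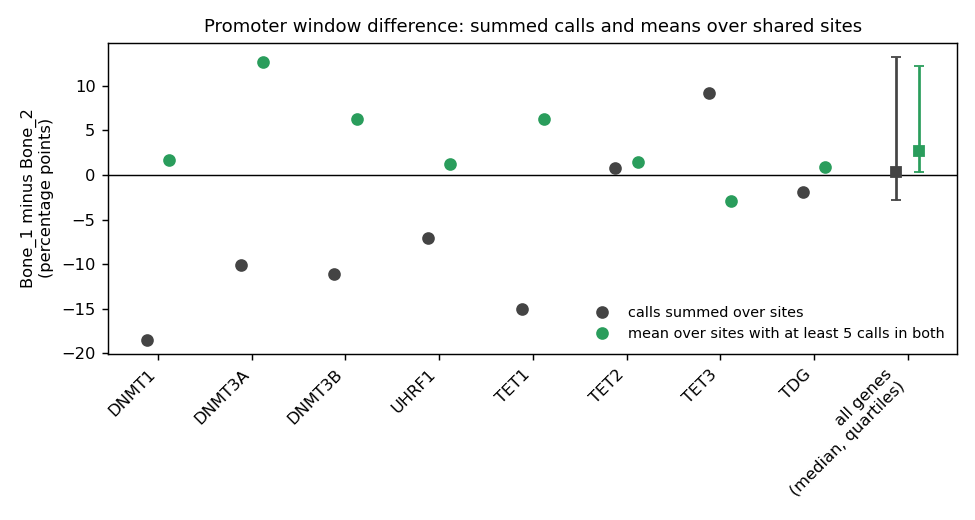
Differences in promoter level, Bone_1 minus Bone_2 in percentage points, are plotted for each gene as summed calls and as the mean over sites with at least 5 calls in both samples, with the median and quartiles of all genes at the right. On summed calls 6 genes lie below 0, down to -18.5 points at DNMT1, and on site means 7 lie above it, up to 12.7 points at DNMT3A, whose shared sites all lie in the kb before the start.

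Of the 80 windows of 1 kb within 5 kb of the starts, 76 had at least 20 calls in each sample and 41 of them differed between the samples (adjusted p under 0.05, Fisher's exact test), of which 34 were higher in Bone_1. Of the 186593 windows of all genes, 63.5% differed, 57.6% with the higher level in Bone_1 and 5.82% with the higher level in Bone_2. Against the genome-wide odds ratio of the libraries the split of the members turned, with 6 windows relatively higher in Bone_1 and 15 in Bone_2, and over all genes it was 33776 and 26043. From 5 to 4 kb before the start, 7 of 8 members differed, against 69.6% of all genes in that window. All 8 were lower in Bone_2, as were 16959 of 18301 genes. The medians were 84.9% and 67.2% for the members and 80.7% and 61.9% for all genes. In the 1 kb inside the start 1 of 8 differed, TET3 at 0.990% and 3.32%, against 48.2% of all genes in that window.

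Of the 7 member windows that were higher in Bone_2, 4 were also higher there as a mean over shared sites. Each was a window inside the start. TET3 from 2 to 3 kb was at 30.2% of 245 calls in Bone_1 and 42.0% of 295 in Bone_2, and at 26.2% and 37.3% over 24 shared sites (adjusted p = 0.0103, Fisher's exact test on calls). UHRF1 from 4 to 5 kb was at 15.5% and 22.3%, and at 17.8% and 22.9% over 34 shared sites (adjusted p = 0.0116, Fisher's exact test on calls). The others were TET1 from 1 to 2 kb and the 1 kb inside the start of TET3. At the remaining windows, DNMT1 and DNMT3B before the start and TET3 from 3 to 2 kb before it, the mean over shared sites was higher in Bone_1.

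In contrast to the starts, the bodies of the 8 genes were mostly methylated and each was lower in Bone_2, as were 90.4% of all bodies. The body was taken from 500 bp after the start to the far end. DNMT1 had the highest mean level, with 86.2% of 20266 calls in Bone_1 and 78.1% of 11221 in Bone_2 (82.2% ± 5.74, SD, n = 2), above 97.0% of all bodies. TET2 was at 88.0% and 73.4% (80.7% ± 10.3, SD, n = 2) and TDG at 84.6% and 71.8% (78.2% ± 9.03, SD, n = 2). The remaining 5 lay close together. TET3 was at 72.7% ± 7.95, TET1 at 72.2% ± 6.17, DNMT3A at 71.8% ± 8.19, DNMT3B at 71.7% ± 10.5 and UHRF1 at 69.5% ± 5.22 (SD, n = 2 each). The values of all neighbours in this order overlap. Each body took in part of the low stretch at its start, which reached 5400 and 5200 bp inside the start at UHRF1. In the 1 kb windows over 2 kb into the gene, UHRF1 had medians of 90.6% and 80.6%, and DNMT1 had 89.8% and 80.7%. The part of the low stretches in the order of the bodies was not tested.

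The difference between the samples in the bodies was from 7.38 points at UHRF1 to 14.8 at DNMT3B, with a median of 11.4, against 14.9 over all bodies. The 7 bodies other than UHRF1 kept a gap of 6.15 to 14.5 points as a mean over the sites with at least 5 calls in both samples. At UHRF1 this gap narrowed to 2.25 points, from 67.3% to 65.1% over 734 sites. Of 550 windows of 1 kb that lay over 2 kb into the 8 genes, 90.9% were lower in Bone_2, against 94.5% of such windows in all genes. The share was 74.2% at UHRF1, 23 of 31 windows, and between 87.5% and 97.2% at the others. The UHRF1 windows higher in Bone_2 were all those from 2 to 8 kb, at the low stretch and its edge, and those from 16 to 17 and 18 to 19 kb.

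**Figure D4:**
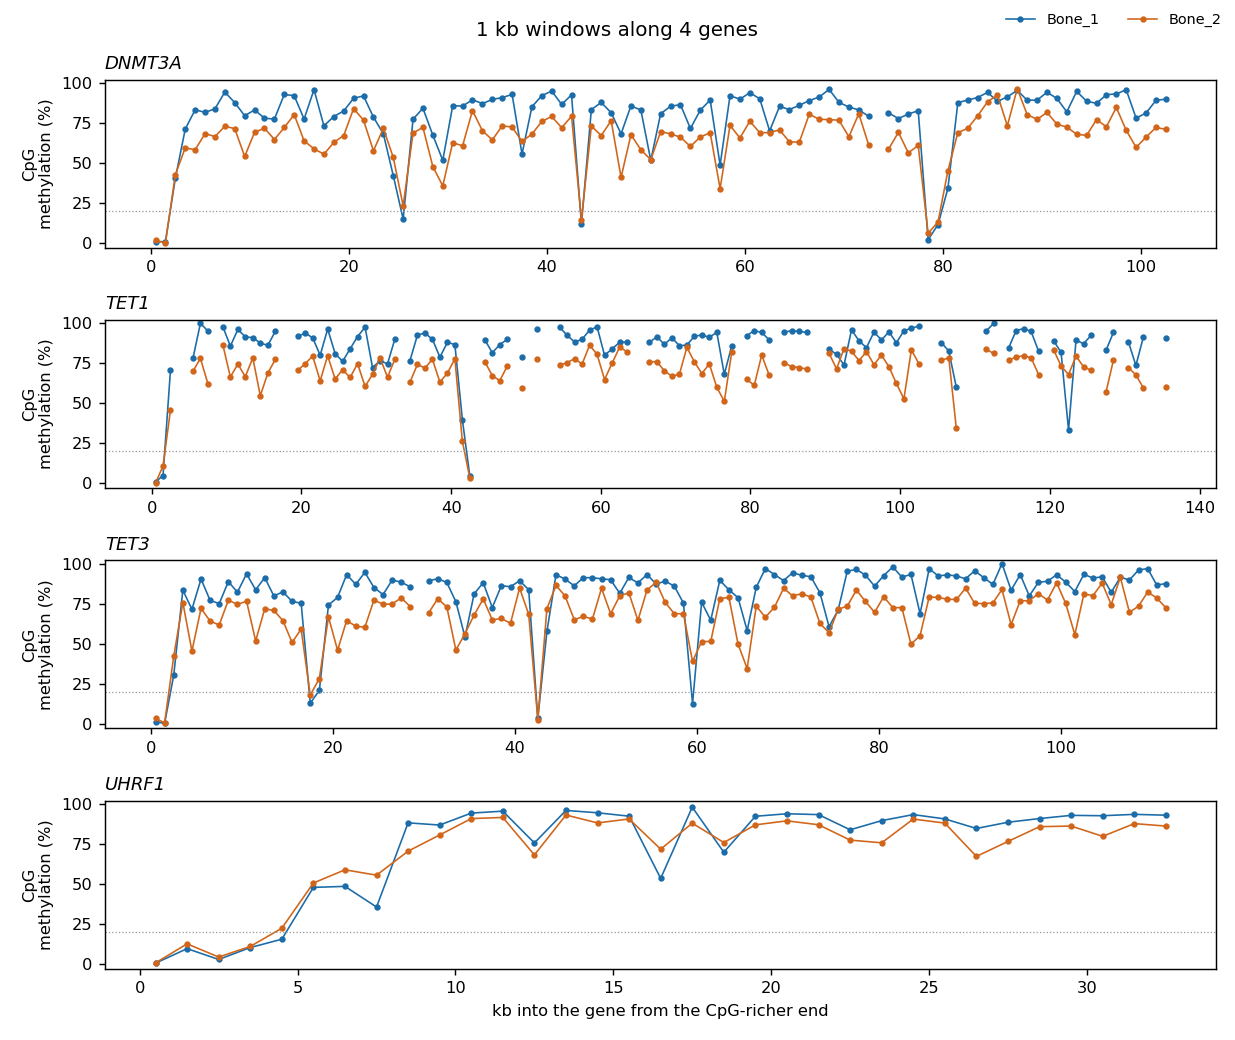
Methylation (%) of 1 kb windows is drawn along DNMT3A, TET1, TET3 and UHRF1, by distance in kb from the start, for windows with at least 20 calls in each sample, with a dotted line at 20%. Between stretches mostly over 50%, both samples drop together at 43 to 44 and 78 to 80 kb in DNMT3A, at 42 to 43 kb in TET1, and at 17 to 18 and 42 to 43 kb in TET3.

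Inside 4 of the genes, windows over 2 kb from the start were under 20% in both samples. There were 8 such windows of 550, or 1.45%, against 0.697% of the windows in all genes. Just outside this limit, DNMT3A from 25 to 26 kb was at 14.9% and 23.3%. In DNMT3A, which is known in other mammals to have a promoter within the gene for a shorter isoform, 2 such runs were found. The run from 78 to 80 kb held 75 sites at chr11:74050085-74051482, with 8.71% of 643 calls methylated in Bone_1 and 9.97% of 331 in Bone_2 (9.34% ± 0.891, SD, n = 2). The kb before it was at 82.6% and 61.0%, and the kb after it at 34.2% and 45.2%. The run from 43 to 44 kb held 34 sites at chr11:74014578-74015507, at 11.9% and 14.5% (13.2% ± 1.83, SD, n = 2), between windows at 92.6% and 79.2% before it and 83.3% and 73.1% after it. Whether either is a promoter was not tested, since the table gives no transcript starts.

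In TET3, the run from 42 to 43 kb held 36 sites at chr11:10625009-10625824 and was at 3.29% of 821 calls in Bone_1 and 2.45% of 368 in Bone_2 (2.87% ± 0.596, SD, n = 2). The run from 17 to 18 kb, with 28 sites at chr11:10649912-10650893, was at 12.8% and 17.8%, with 75.2% and 59.0% in the kb before it and 20.8% and 28.2% in the kb after it. In TET1, the run from 42 to 43 kb held 25 sites at chr28:24949405-24950314, at 4.41% of 204 calls and 3.39% of 295 (3.90% ± 0.723, SD, n = 2). The kb after it had 2 CpG sites with 8 calls in Bone_1 and 40 in Bone_2, none of them methylated, too few to count. The run in UHRF1, from 2 to 4 kb, was part of the wide stretch at its start and was at 8.19% and 6.81%. DNMT1, DNMT3B, TET2 and TDG had no such window.

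The calls of Bone_1 were split unevenly between the strands. At the DNMT3A promoter 2708 calls lay on the forward strand of the assembly and 79 on the reverse, and at the TET2 promoter 411 and 2173. In Bone_2 these were 302 and 68, and 447 and 380. Levels also differed between strands where the calls were even, as at the UHRF1 promoter in Bone_2, with 55.3% of 284 forward and 21.6% of 296 reverse calls methylated, and in Bone_1 the TET3 promoter was at 58.6% and 31.8%. The largest gap between strands in the bodies was at DNMT3B in Bone_1, at 71.7% on the forward and 87.4% on the reverse strand, against 64.1% and 64.5% in Bone_2. UHRF1 had 80.4% and 65.8% in Bone_1 and 68.6% and 62.9% in Bone_2. Hemimethylation was not tested.

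The other genes of the pathway were described from lists of partners, repair factors, readers and methyl donor enzymes. Of 14 partners of DNA methylation, 10 were under 20% in both samples in the promoter window, against 52.7% of all promoters, and 8 differed between the samples, against 63.3%. Of these 8, 6 were higher in Bone_2 on summed calls, of which 1, UHRF2, was also higher there as a mean over shared sites. Those over 50% were DNMT3L, the catalytically inactive cofactor of the de novo enzymes in germ cells, at 71.1% ± 8.10, DPPA3, a maternal factor that protects from demethylation in the zygote, at 65.4% ± 6.89, CDCA7, a partner of the remodeller HELLS, at 72.4% ± 14.2, and the histone methyltransferase gene NSD1 at 62.3% ± 6.02 (SD, n = 2 each). The ends of CDCA7 held 16 and 14 CpG sites, those of DNMT3L 29 and 22, and those of DPPA3 13 and 8, so their starts are uncertain. HELLS itself was at 4.40% and 7.93%, and UHRF2, the paralogue of UHRF1, at 1.59% and 8.72%, both named after their values were seen.

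Of 21 TET partners and base excision repair genes, 16 were under 20% in both samples, against 52.7% of all promoters, and 11 differed, against 63.3%. On summed calls 4 were higher in Bone_1 and 7 in Bone_2, and 3 of the 7 were also higher in Bone_2 as a mean over shared sites. Among those over 50% were the glycosylase gene NEIL1 at 69.7% ± 8.73 and the cytidine deaminase gene APOBEC1 at 64.6% ± 13.6 (SD, n = 2 each). The ends of APOBEC1 held 22 and 13 CpG sites. Among the 7 readers of methylated CpG, 3 were under 20% in both and 5 differed, against the same 52.7% and 63.3% of all promoters. On summed calls 2 were higher in Bone_1 and 3 in Bone_2, and 2 of the 3 were also higher in Bone_2 over shared sites, MBD2 among them by a mean of 11.2% against 11.1%. ZBTB4 was at 73.8% ± 14.8 and ZBTB38, with 40 and 25 CpG sites at its ends, at 63.7% ± 16.1 (SD, n = 2).

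Of 11 genes of methyl donor supply, 7 were under 20% in both samples, against 52.7% of all promoters, and 7 differed, against 63.3%. On summed calls 3 were higher in Bone_1 and 4 in Bone_2, and 2 of the 4 were also higher in Bone_2 over shared sites. MAT1A, the S-adenosylmethionine synthetase gene of liver, was at 71.4% ± 14.7 and SHMT1, with 30 and 24 CpG sites at its ends, at 75.1% ± 15.0 (SD, n = 2), whereas MAT2A, the synthetase gene of most other tissues, was at 0.570% ± 0.139 (SD, n = 2) and was also chosen after its value was seen. The promoter window of MAT1A held 25 CpG sites and that of MAT2A 138, and the part of CpG number in their contrast was not tested. BHMT, which remethylates homocysteine with betaine, was also over 50% in the mean, at 86.9% in Bone_1 and 63.0% in Bone_2 (adjusted p = 6.04e-11, Fisher's exact test). AHCY, which removes the S-adenosylhomocysteine that inhibits methyltransferases, was at 10.1% of 2188 calls and 36.5% of 556 (adjusted p = 4.05e-43, Fisher's exact test), but at 28.1% and 24.7% as a mean over 37 shared sites. The median promoter levels of the 4 lists, from 2.27 to 23.5% in Bone_1 and from 8.32 to 28.1% in Bone_2, compare with 11.4% and 16.1% over all genes.

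As these data hold no expression values, the labelled tissue could be compared with promoter levels of marker genes alone. Of 10 measured osteoblast and osteocyte markers, 3 were under 20% in both samples, SP7, COL1A1 and COL1A2, and 6 were over 50% in the mean, among them RUNX2, BGLAP and SOST. All 3 cartilage markers were under 20% in both, and none of the 8 white blood cell markers was, where 52.7% of all promoters were. The promoter windows of the cartilage markers held 116 to 135 CpG sites and those of the white blood cell markers 12 to 51. The part of CpG number in this contrast was not tested. The choice of end was narrow at many of these markers, with 15 and 10 CpG sites at the ends of RUNX2 and 49 and 39 at those of BGLAP. The mean levels of the white blood cell markers ran from 27.4 to 77.4%, and the part of cell makeup in the levels of the 8 genes was not tested.

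In the profile of 10 windows in 2 samples, 20 values in all, DNMT3A lay nearest to PROM1, with a root mean square difference of 7.24 points among 11870 genes, whose median distance was 32.3 points. DNMT3B lay nearest to ARF3 (11.2 points), UHRF1 to ZC3H4 (9.64), TET3 to MDK (12.8) and TDG to PMEL (6.20). TET1 and TET2 had windows with too few calls for this. Among the members with such a profile, TDG and DNMT1 were nearest to each other, at 19.1 points, as were DNMT3A and TET3, at 19.7.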

How the data were processed

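WGBS libraries of 2 bone samples were analysed. Per the submitters' processing notes the authors used FastQC 0.11.5, Trim Galore 0.4.5, Bowtie2 and Bismark 0.19.0 with ARS-UCD1.2, whereas the study's methods name other versions and an older assembly. The deposited values are counts of methylated and unmethylated calls per CpG cytosine, which name no build. From these counts, Python 3.11.15, pandas 2.3.3 and scipy 1.17.1 were used to sum calls over promoters (1000 bp before to 500 bp after the start), bodies and 1 kb windows with at least 20 calls in each sample. Samples were compared by two-sided Fisher's exact test with Benjamini-Hochberg adjustment over all genes, at 0.05. The test treats calls as independent. On simulated promoters with independent calls, 200 of 20148 changed by 20 points, 92.5% were recovered and 8 unchanged promoters were called. Calls that share a read and differences in the sites each library covered were not simulated.

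Gene extents came from RefSeq (ARS-UCD2.0). Annotated starts were planned, but the table has no strand, so the CpG-richer end was used, and 382 genes with tied ends were left out. Whether that end is the transcription start was not tested, and sequences were not used here.

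The members and lists were chosen with earlier results of these data known. Named genes were the 8 members, list genes with a mean promoter level over 50%, the 3 list genes that differed most among those past the threshold, the nearest gene by window profile and the low runs inside members. Results for some of these genes are not reported here. Low stretches were chosen after seeing the data. Alternatives varied the window, the call minimum, the strand, the weighting and the end.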

Additional observations from a re-analysis of the deposited data

How the results depend on the processing

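The median promoter level of the 8 genes, 15.5%, became 31.2% with at least 5 calls a cytosine and 82.2% at the other end of the genes, and ran from 7.10 to 23.8% when either sample was left out. The median body level, 72.4%, ran from 67.4 to 78.7%. Promoters that differed numbered 12744 of 20148 tested, but 8018 of 19970 with 500 bp on each side and 16590 of 20236 with 2000 and 1000 bp. They numbered 2975 with a minimum of 20 points and 8025 of 13868 tested where the richer end held at least 2 times the sites. Members that differed numbered 6, but 2 with 500 bp on each side and 0 with a minimum of 20 points (Fisher's exact test). Against the genome-wide odds ratio, windows that differed fell from 118415 to 59819 (33776 relatively higher in Bone_1 and 26043 in Bone_2, from 107552 and 10863), and member windows from 41 to 21 (6 and 15, from 34 and 7), and 2845 promoters were relatively higher in Bone_1 and 9554 in Bone_2, where the plain test gave 7164 and 5580. This split was 8284 and 8306 with the window of 2000 and 1000 bp, and 14222 and 558 at the other end. With 500 bp on each side it was 6070 and 1948, and with a minimum of 20 points 2797 and 178. It turned to 6196 and 7178 with at least 5 calls a cytosine, a minimum applied in each sample on its own.

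The promoter difference, Bone_1 minus Bone_2, changed sign at the other end for DNMT1 (10.4 points), DNMT3A (14.8), DNMT3B (25.8), UHRF1 (10.5), TET1 (17.3) and TDG (12.8). It changed sign as a mean over sites with 5 calls in both for DNMT1 (1.64), DNMT3A (12.7), DNMT3B (6.26), UHRF1 (1.18), TET1 (6.27), TET3 (-2.88) and TDG (0.895), and with 5 calls in each sample's own sites for TET1 (3.97). With equal weight over all sites with a call it did so for DNMT1 (0.134), DNMT3A (1.82), DNMT3B (2.20), UHRF1 (0.975), TET1 (5.11) and TDG (0.534), and with summed calls over the shared sites for DNMT3A (16.8). With 500 bp on each side it did so for DNMT3B (0.71), TDG (0.23), TET2 (-0.12) and TET3 (-2.65), with 5 calls a cytosine for TET2 (-1.39), and with 2000 and 1000 bp for TET2 (-18.1), which was then past the threshold while TDG was not. The cause was not tested. The other end, the shared sites, equal weight over all sites and the richer-end limit were chosen after seeing the data. Starts of other transcripts were not run, since the table used gives none. No paired analysis was possible because both libraries carry the same group label.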
